A study of Rattus norvegicus with 9 samples.

Results

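miR-26a and miR-26b are the 2 rat miRNAs of the miR-26 family, and they were followed here as their 5' arms, rno-miR-26a-5p and rno-miR-26b-5p, which are 2 of the 201 mature miRNAs in the deposited table of read counts. They were taken by name from that table and, tag by tag, from the lists of distinct small RNA sequences of the single libraries. The small RNA came from exosomes, the membrane vesicles that cells release, of primary rat peritoneal macrophages collected by lavage of untreated animals, and was sequenced on the BGISEQ-500 platform. The 9 libraries form 3 groups of 3, and the series title places them in work on miR-204-5p, Foxc1 and peritoneal fibrosis. In LPS+AS-IV, astragaloside IV, an Astragalus saponin, was given at 150 µM for 24 h and LPS after it, at 100 ng/ml for 6 h. LPS cultures received lipopolysaccharide, a component of the bacterial outer membrane that activates macrophages, at 100 ng/ml for 6 h. Control cultures received 0.1% DMSO for 24 h. Both agents were dissolved in DMSO, a final DMSO concentration is given for Control alone, and no 24 h vehicle step is listed for LPS. All cultures were kept in medium with 10% fetal bovine serum. The labels do not say whether the serum was freed of vesicles. The mature sequences of miR-26 are shared among mammals, so rat and bovine copies cannot be told apart. Nothing says that the libraries of a group stem from different rats or dishes. The p-values below therefore reflect the scatter of these samples alone, which may be technical.

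A miRNA guides an Argonaute protein to mRNAs that pair with its seed, the bases near its 5' end, and lowers their translation or stability. Members of the miR-26 family lie in introns of genes of the CTDSP family, which encode small phosphatases, and are known in human and mouse cells to repress the histone methyltransferase EZH2 and to be repressed by MYC. The 3' ends of mature miRNAs vary, because processing can stop at neighbouring bases and because terminal uridylyltransferases and poly(A) polymerases add uridines or adenosines. In human cells ZCCHC11, a terminal uridylyltransferase, is known to add uridines to miR-26a.

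The mature sequences are shown because the 2 members are so alike that 1 inner base separates most of their tags. They are RefSeq sequences of the GRCr8 build, written 5' to 3', and capitals mark the seed, bases 2 to 8.
rno-miR-26a-5p: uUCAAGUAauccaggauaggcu
rno-miR-26b-5p: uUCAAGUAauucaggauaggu
The first is encoded at chr8:127633063-127633084 on the plus strand, inside Ctdspl, and is 22 nt long. The second is encoded at chr9:83425723-83425743 on the plus strand, inside Ctdsp1, and is 21 nt long. They share the seed UCAAGUA, which no other rat miRNA in the RefSeq table has. Over their first 21 bases they differ at 2, C11U and C21U, where the base of miR-26a-5p comes first and positions count from 1 at the 5' end. In the hairpin, miR-26a-5p is followed by the bases GUGC and miR-26b-5p by UGUG, so a uridine after the last base matches the hairpin in miR-26b-5p and not in miR-26a-5p.

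The tags below are the forms on which the counts turned. They are the sequenced DNA letters, and capitals mark bases after the RefSeq 3' end or, inside the sequence, a base that differs from the mature miRNA.
miR-26b-5p, 1 base shorter: ttcaagtaattcaggatagg
miR-26b-5p, RefSeq form: ttcaagtaattcaggataggt
miR-26b-5p, 1 T longer: ttcaagtaattcaggataggtT
miR-26b-5p, 2 T longer: ttcaagtaattcaggataggtTT
miR-26a-5p, RefSeq form: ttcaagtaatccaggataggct
miR-26a-5p, 1 T longer: ttcaagtaatccaggataggctT
miR-26a-5p, 1 A longer: ttcaagtaatccaggataggctA
miR-26a-5p, T and A longer: ttcaagtaatccaggataggctTA
miR-26a-5p, G20A: ttcaagtaatccaggatagAct

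The authors' file of each library gave each tag 1 label. Tags labelled as a mature miRNA made up the deposited table. Tags labelled as the miRNA's hairpin carried a score of 1, whether or not they matched the RefSeq hairpin. Some tags of the members carried only the name of the Rfam miR-26 family. Both of these kinds stood outside the table. The label of a sequence could differ between libraries. For example, miR-26a-5p with ATT added was labelled mature in LPS 3, with 115 reads, and carried the family name in Control 3, with 1 read. Family tags were counted with a member where bases 3 to 19, which include base 11, matched it exactly.

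Reads assigned to any RNA class numbered 3484099 to 9527483 per library, and those counted as mature miRNA 15426 to 546599, with both the lowest and the highest in LPS+AS-IV. A count of 0 therefore allowed up to 3 reads, which was 5.99 to 216 CPM (counts per 1e6 table reads, scaled with the TMM factors) depending on the library. No replicate pair was identical, and each pair differed well beyond counting noise (chi-square per degree of freedom 30.5 or more). The myeloid markers checked the label thinly. miR-223-3p, a miRNA of granulocytes and macrophages, had 0, 99 and 944 reads in LPS+AS-IV, 0, 0 and 219 in LPS, and 36, 11 and 113 in Control, so it was at 0 in 3 libraries. miR-142-5p, a miRNA of blood cells, had 0, 0 and 1 reads in LPS+AS-IV, 0, 0 and 47 in LPS, and 54, 0 and 1 in Control. These 2 of 3 myeloid markers held 0 to 0.173% of table reads in LPS+AS-IV, 0 to 0.432% in LPS and 0.0356 to 0.213% in Control. The 3 erythroid markers held 3.04 to 3.54%, 2.72 to 3.97% and 4.07 to 4.79% in LPS+AS-IV, LPS and Control. The lymphocyte marker held 1.42 to 4.06%, 2.43 to 3.12% and 2.80 to 4.02% in the same groups, the 2 endothelial markers 0.415 to 1.23%, 0.195 to 0.472% and 0.745 to 1.39%, and the 2 liver and serum markers 0.465 to 0.558%, 0.320 to 1.02% and 0.143 to 0.356%. Of the epithelial and mesothelial markers 5 of 7 had reads, with at most 0.165% in any library, and the 3 striated muscle markers reached at most 0.479%. The part of other cell types or of serum in the levels of miR-26 was not tested.

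miR-26a-5p was one of the more abundant miRNAs in every library, and its level did not differ between groups by more than the libraries within them. It had 391, 2071 and 9675 table reads in LPS+AS-IV, 808, 1031 and 1498 in LPS, and 1350, 746 and 3730 in Control. Scaled, it had 28200, 31571 and 19328 CPM in the LPS+AS-IV libraries, 29073, 17651 and 24018 CPM in the LPS libraries, and 29146, 22282 and 50128 CPM in Control. Control 3 stood highest, and all 3 groups overlapped. By level it ranked 10, 12 and 16 in LPS+AS-IV, 9, 16 and 13 in LPS, and 11, 13 and 7 in Control among the miRNAs of its library. Its mean level in LPS+AS-IV was 26366 ± 6324 CPM, against 23581 ± 5724 CPM in LPS and 33852 ± 14507 CPM in Control (SD, n = 3 each).

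miR-26b-5p was far scarcer in the table, and there its counts were highest in LPS+AS-IV. It had 13, 290 and 782 table reads in LPS+AS-IV, 12, 0 and 34 in LPS, and 1, 23 and 66 in Control. The levels were 938, 4421 and 1562 CPM in the LPS+AS-IV libraries, 432, 0 and 545 CPM in the LPS libraries, and 21.6, 687 and 887 CPM in Control. Each LPS+AS-IV library lay above each LPS and Control library, although 938 CPM in LPS+AS-IV 1 stood for 13 reads and lay close to the 887 CPM of Control 3. The means were 2307 ± 1857 CPM in the LPS+AS-IV libraries, 326 ± 288 CPM in LPS and 532 ± 453 CPM in Control (SD, n = 3 each). Over all tested miRNAs, 7.45% had groups that did not overlap in LPS+AS-IV against LPS, 19.1% in LPS against Control and 10.6% in LPS+AS-IV against Control.

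**Figure D1:**
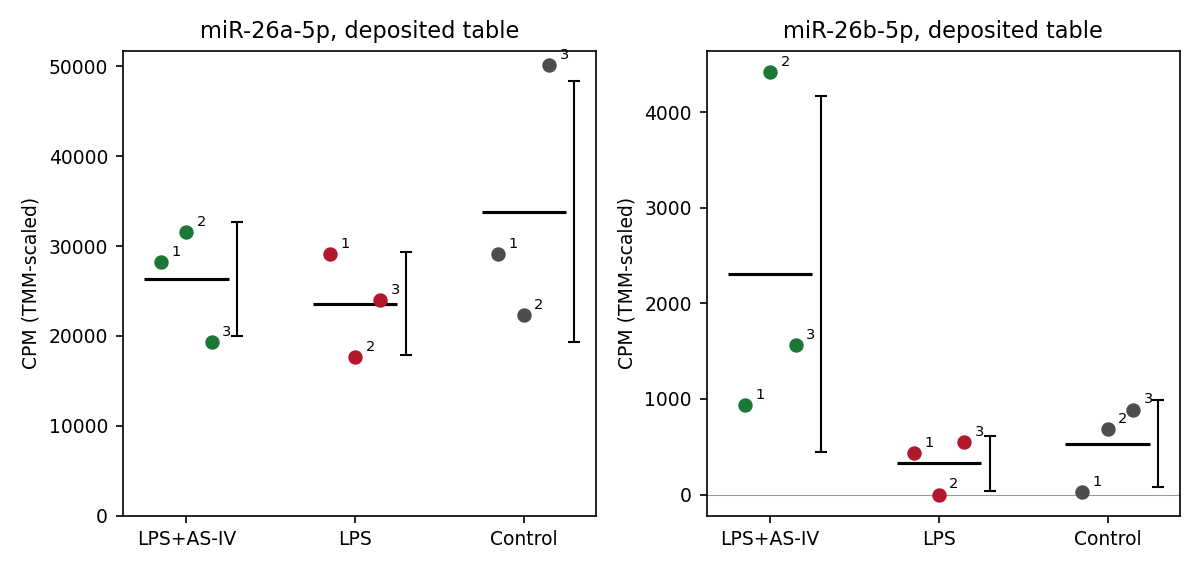
Levels of miR-26a-5p and miR-26b-5p in the deposited table by library, in CPM on linear axes of different range, with 1 numbered point per library, a line at each group's mean and a bar of 1 SD to each side of it. miR-26a-5p lay between 17651 and 50128 CPM with overlapping groups, and miR-26b-5p between 0 and 4421 CPM with the LPS+AS-IV libraries highest.

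Neither member passed the threshold in any of the 3 comparisons (edgeR's quasi-likelihood test on the table, Benjamini-Hochberg adjusted p under 0.05 over 94 miRNAs). The share of tested miRNAs that passed was 0% in LPS+AS-IV against LPS, 1.06% in LPS against Control and 2.13% in LPS+AS-IV against Control. Those that passed were let-7a-5p in both comparisons with Control and miR-3596a in LPS+AS-IV against Control. The commonest tag of let-7a-5p went under the name miR-3596a in the Control libraries. For miR-26b-5p the log2 fold change with its SE was 2.82 ± 2.27 in LPS+AS-IV against LPS, with an unadjusted p of 0.235 and an adjusted p of 0.963 by edgeR. It was -0.71 ± 2.14 in LPS against Control (adjusted p = 0.964, edgeR) and 2.12 ± 2.21 in LPS+AS-IV against Control (adjusted p = 0.981, edgeR). The value for LPS against Control was 0.10 without LPS 2, the library with no table read. These standard errors are as large as the changes or nearly so.

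For miR-26a-5p the log2 fold change was 0.16 ± 0.38 in LPS+AS-IV against LPS (adjusted p = 0.963, edgeR), and its sign was not stable, since it was -0.21 with DESeq2 size factors. It was -0.52 ± 0.38 in LPS against Control (adjusted p = 0.854, edgeR) and -0.36 ± 0.38 in LPS+AS-IV against Control (adjusted p = 0.981, edgeR). The last was 1.14 with scaling by all assigned reads, a scaling that moved the median of all tested miRNAs by 1.44 in that comparison. DESeq2 size factors moved the medians by -0.34, 0.25 and -0.13 and assigned reads by 1.31, 0.13 and 1.44, in the order LPS+AS-IV against LPS, LPS against Control, LPS+AS-IV against Control.

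A ratio of the members within a library is free of the scaling between libraries. For each table read of miR-26b-5p there were 30.1, 7.14 and 12.4 reads of miR-26a-5p in LPS+AS-IV, 67.3 and 44.1 in LPS 1 and LPS 3, and 1350, 32.4 and 56.5 in Control, while LPS 2 had no read of miR-26b-5p. The mean log2 ratio, with 0.5 added to each count, was 3.77 in LPS+AS-IV, 7.49 in LPS and 6.87 in Control, and LPS+AS-IV overlapped neither of the other groups. The difference was -3.72 in LPS+AS-IV against LPS and -3.10 in LPS+AS-IV against Control, each with p = 0.1 in a two-sided exact permutation test (adjusted p = 0.15 over 3 comparisons), which is the smallest p that 3 against 3 can give. LPS against Control differed by 0.62 (exact permutation p = 0.6). Left-out libraries moved this last value between -1.14 and 2.09.

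The table held only a part of the reads of miR-26b-5p, and that part differed from library to library. Its hairpin-labelled tags had 59, 162 and 1469 reads in LPS+AS-IV, 24, 2 and 127 in LPS, and 206, 168 and 401 in Control. Its family-labelled tags had 54, 76 and 3 reads in LPS+AS-IV, 24, 122 and 138 in LPS, and 1, 26 and 215 in Control. Over all labels it had 126, 528 and 2254 reads in LPS+AS-IV, 60, 124 and 299 in LPS, and 208, 217 and 682 in Control. The table thus kept 10.3%, 54.9% and 34.7% of these reads in LPS+AS-IV, 20%, 0% and 11.4% in LPS, and 0.481%, 10.6% and 9.68% in Control. With 95% Wilson intervals, which cover counting error only, the share kept was 50.7 to 59.1% in LPS+AS-IV 2, 0 to 3.005% in LPS 2 and 0.0849 to 2.67% in Control 1.

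For miR-26a-5p the table kept most reads. Hairpin-labelled tags added 60, 283 and 1315 reads in LPS+AS-IV, 46, 262 and 37 in LPS, and 350, 166 and 333 in Control. Family-labelled tags added 8, 42 and 584 in LPS+AS-IV, 76, 2 and 0 in LPS, and 51, 3 and 186 in Control. The RefSeq form alone was 84.7%, 86.4% and 83.6% of its reads of all labels in LPS+AS-IV, 84.2%, 79.6% and 90.1% in LPS, and 77.0%, 81.5% and 87.7% in Control.

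Counted over mature and hairpin tags together, miR-26b-5p stood lowest in LPS instead. It had 2857, 3308 and 2572 CPM in the LPS+AS-IV libraries, 804, 19.2 and 1456 CPM in the LPS libraries, and 2494, 3338 and 3683 CPM in Control. Each LPS library lay below each library of the other 2 groups, and LPS+AS-IV and Control overlapped. Of the 161 such reads of LPS 3, 88 were a hairpin-labelled tag found in that library alone, which has the 3' end of miR-26a-5p. With this count 8.53% of 129 tested miRNAs did not overlap in LPS+AS-IV against LPS, 18.6% in LPS against Control and 11.6% in LPS+AS-IV against Control. The log2 fold change was 1.94 ± 1.11 in LPS+AS-IV against LPS (adjusted p = 1.00, edgeR), -2.06 ± 1.11 in LPS against Control (adjusted p = 0.596, edgeR) and -0.12 ± 1.07 in LPS+AS-IV against Control (adjusted p = 0.993, edgeR). With this count 0%, 0.775% and 1.55% of tested miRNAs passed the threshold in the 3 comparisons. Without LPS 2, which had 2 such reads, the first 2 values were 1.27 and -1.38.

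With the family tags added, the groups of miR-26b-5p overlapped, while 7.75%, 17.8% and 11.6% of tested miRNAs did not overlap in the 3 comparisons. miR-26b-5p then had 4990, 3857 and 2568 CPM in the LPS+AS-IV libraries, 1341, 1189 and 2702 CPM in the LPS libraries, and 2500, 3788 and 5373 CPM in Control. LPS 3 lay above LPS+AS-IV 3 and Control 1, and the other 2 LPS libraries lay below all the rest. Of the 299 reads of LPS 3, 88 were the tag found in that library alone, which has the 3' end of miR-26a-5p. Without these reads and at the same scaling, LPS 3 would lie below LPS+AS-IV 3 and Control 1. The overlap of LPS with the other groups thus rests on counting this tag with miR-26b-5p. The log2 fold change of miR-26b-5p was 1.12 ± 0.65 in LPS+AS-IV against LPS (adjusted p = 0.997, edgeR), -1.16 ± 0.65 in LPS against Control (adjusted p = 0.648, edgeR) and -0.033 ± 0.64 in LPS+AS-IV against Control (adjusted p = 0.992, edgeR). With each library left out in turn, the first stayed between 0.82 and 1.57 and the second between -1.57 and -0.79, with no adjusted p under 0.555. For miR-26a-5p the same count gave 0.05, -0.58 and -0.53 in the 3 comparisons, and neither member passed the threshold, which 0%, 0.775% and 1.55% of tested miRNAs passed.

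**Figure D2:**
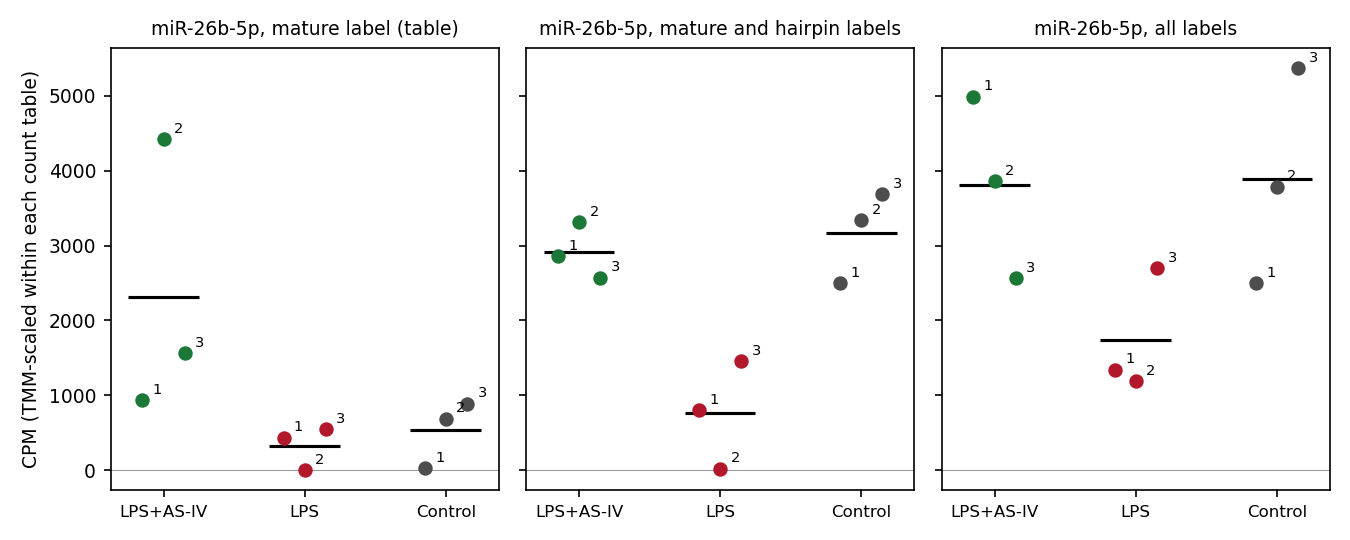
Level of miR-26b-5p in each library, in CPM on a linear axis, counted from the table, from mature and hairpin tags, and from tags of all labels, with 1 numbered point per library and a line at each group's mean. LPS 2 had 0, 19.2 and 1189 CPM under the 3 counts, and the LPS+AS-IV libraries all lay above Control in the first count alone.

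**Figure D3:**
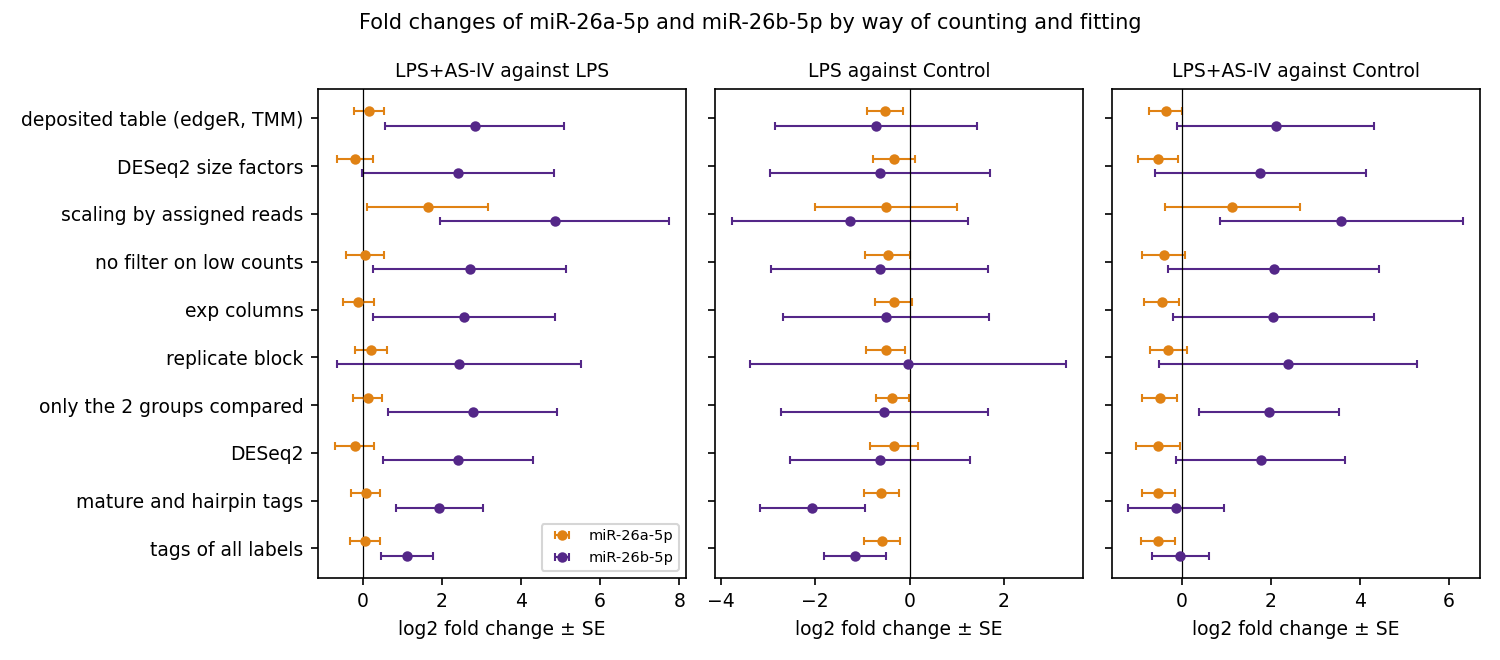
log2 fold changes of both members with their SE in the 3 comparisons, 1 line for each way of counting, scaling or fitting. In LPS+AS-IV against Control miR-26b-5p was 2.12 from the table and -0.033 from tags of all labels, where miR-26a-5p was below 0 except with scaling by assigned reads.

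Over mature and hairpin tags the log2 ratio was 2.64, 2.38 and 2.29 in LPS+AS-IV, 4.55, 9.02 and 3.25 in LPS, and 3.03, 2.25 and 3.12 in Control. LPS lay above both other groups, with LPS 2 far above the rest on 2 reads of miR-26b-5p. The 3.25 of LPS 3 counts as miR-26b-5p the 88 reads of the tag found in that library alone. The difference was -3.17 in LPS+AS-IV against LPS and 2.80 in LPS against Control (exact permutation p = 0.1 for each, unadjusted), and -0.37 in LPS+AS-IV against Control (exact permutation p = 0.4). When all labels were counted, the ratios of the groups overlapped. There were then 3.64, 4.54 and 5.13 reads of miR-26a-5p for each read of miR-26b-5p in LPS+AS-IV, 15.5, 10.4 and 5.13 in LPS, and 8.42, 4.22 and 6.23 in Control. The 5.13 of LPS 3 counts as miR-26b-5p the 88 reads of the tag that has the 3' end of miR-26a-5p. Without these reads the ratio of LPS 3 would be higher, above each LPS+AS-IV library and still within the range of Control. The log2 ratio differed by -1.09 in LPS+AS-IV against LPS, with an exact permutation p of 0.2. It differed by 0.63 in LPS against Control and by -0.46 in LPS+AS-IV against Control (exact permutation p = 0.3 for both).

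The labels of miR-26b-5p went with the 3' ends of its tags. The commonest tag was 1 base longer than the RefSeq form, with a T that matches the hairpin, and was labelled hairpin. It had 58, 89 and 728 reads in LPS+AS-IV, 23, 2 and 39 in LPS, and 186, 167 and 328 in Control, and so was present in all 9 libraries. The RefSeq form had 13, 290 and 779 reads in LPS+AS-IV, 12, 0 and 33 in LPS, and 1, 23 and 66 in Control. Control 1 thus held 186 reads of the longer form and 1 read of the form that the table counts.

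The form 1 base shorter, also labelled hairpin, was found mostly in LPS+AS-IV 2 and LPS+AS-IV 3. It had 1, 70 and 736 reads in LPS+AS-IV, 0 in each LPS library, and 0, 0 and 1 in Control. It made up 0.794%, 13.3% and 32.7% of the reads of miR-26b-5p in LPS+AS-IV, and at most 0.147% in any library of the other groups. LPS libraries had 60 to 299 reads of miR-26b-5p in all, so 0 reads there allowed up to 3.

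The form 2 T longer, of which the second T does not match the hairpin, carried the family label and had a different spread over libraries. It had 24, 75 and 1 reads in LPS+AS-IV, 24, 121 and 78 in LPS, and 0, 26 and 162 in Control. It made up most of miR-26b-5p in LPS 2, the library in which the table listed none. Tags ending in added bases that do not match the hairpin were 19.05%, 14.2% and 0.178% of the reads in LPS+AS-IV, 40%, 97.6% and 44.2% in LPS, and 0%, 12.0% and 33.7% in Control. Each LPS library was above each LPS+AS-IV and each Control library in this share, and LPS+AS-IV overlapped Control. This share was not tested.

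The share of reads under the family label was 42.9%, 14.4% and 0.133% in LPS+AS-IV, 40%, 98.4% and 46.2% in LPS, and 0.481%, 12.0% and 31.5% in Control. LPS lay above Control and overlapped LPS+AS-IV, where the first library was above LPS 1. Its group mean was 61.5% ± 32.1 in LPS and 14.7% ± 15.7 in Control (SD, n = 3 each). The difference of 46.9 percentage points had p = 0.1 in an exact permutation test, the smallest the design allows, and an adjusted p of 0.66 over 33 such tests. In LPS 1 the share rests on 60 reads and has a 95% Wilson interval of 28.6 to 52.6%. The upper bound in Control 3 was 35.1%.

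Mean tag length summed these ends up. It was 22.55, 21.32 and 21.0009 nt for miR-26b-5p in LPS+AS-IV, 22.17, 22.98 and 22.65 nt in LPS, and 22.08, 22.01 and 22.07 nt in Control. The LPS libraries were all above the Control libraries (exact permutation p = 0.1, adjusted p = 0.66), and LPS+AS-IV lay on both sides. For miR-26a-5p the group means were 22.07 ± 0.12 nt in LPS+AS-IV, 22.23 ± 0.04 nt in LPS and 22.08 ± 0.05 nt in Control (SD, n = 3 each). For miR-26a-5p the LPS libraries were above all the others, by 0.16 nt over LPS+AS-IV and 0.15 nt over Control (exact permutation p = 0.1 and adjusted p = 0.66 for each).

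The RefSeq form of miR-26b-5p held 18.1%, 64.2% and 34.6% of mature and hairpin reads in LPS+AS-IV, 33.3%, 0% and 20.5% in LPS, and 0.483%, 12.0% and 14.1% in Control. The 20.5% of LPS 3 counts among its 161 reads the 88 of the tag that has the 3' end of miR-26a-5p. Each LPS+AS-IV library was above each Control library, by 30.05 percentage points in the mean (exact permutation p = 0.1, adjusted p = 0.66 over 33 tests). The intervals of the nearest libraries, 10.9 to 28.5% in LPS+AS-IV 1 and 11.3 to 17.6% in Control 3, overlapped. For miR-26a-5p the same share averaged 87.4% ± 1.00 in LPS+AS-IV, 87.2% ± 6.49 in LPS and 84.3% ± 6.54 in Control (SD, n = 3 each), and all groups overlapped. Hairpin-labelled tags of both members together were 22.75%, 15.86% and 21.03% of mature and hairpin reads in LPS+AS-IV, 7.87%, 20.4% and 9.67% in LPS, and 29.2%, 30.3% and 16.2% in Control.

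**Figure D4:**
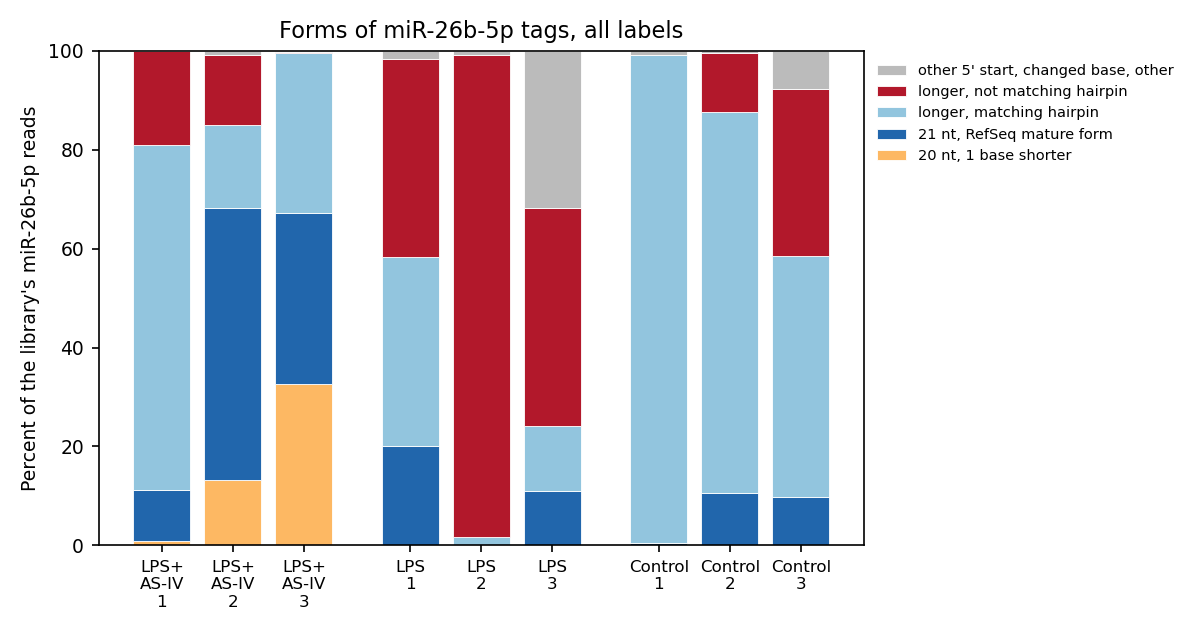
Forms of miR-26b-5p by library, as percent of its reads of all labels, stacked from the shorter form through the RefSeq form to longer forms that match or do not match the hairpin. The shorter form reached 32.7% in LPS+AS-IV 3, and longer forms not matching the hairpin reached 97.6% in LPS 2.

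The additions to miR-26a-5p took a smaller share of its reads in every group's mean, and the groups overlapped. The form 1 T longer, which does not match the hairpin, had 20, 37 and 354 reads in LPS+AS-IV, 27, 158 and 11 in LPS, and 45, 119 and 86 in Control, so that all 9 libraries held it. The form 1 A longer had 1, 50 and 375 reads in LPS+AS-IV, 2, 83 and 1 in LPS, and 71, 0 and 0 in Control. Tags with added T alone were 4.58%, 1.59% and 3.06% of its reads in LPS+AS-IV, 10.2%, 12.2% and 0.717% in LPS, and 3.66%, 13.0% and 2.07% in Control. LPS 1, LPS 2 and Control 2 were the high libraries, and the groups overlapped. Tags with added A alone ranged from 0.436 to 3.24% in LPS+AS-IV, 0.0652 to 6.41% in LPS and 0 to 5.71% in Control. Other additions that do not match the hairpin ranged from 0 to 4.95%, 0 to 7.49% and 0.0471 to 0.109% in the same groups. The 7.49% was LPS 3, where the tag with ATT added was labelled mature and gave 115 of the 1498 table reads.

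**Figure D5:**
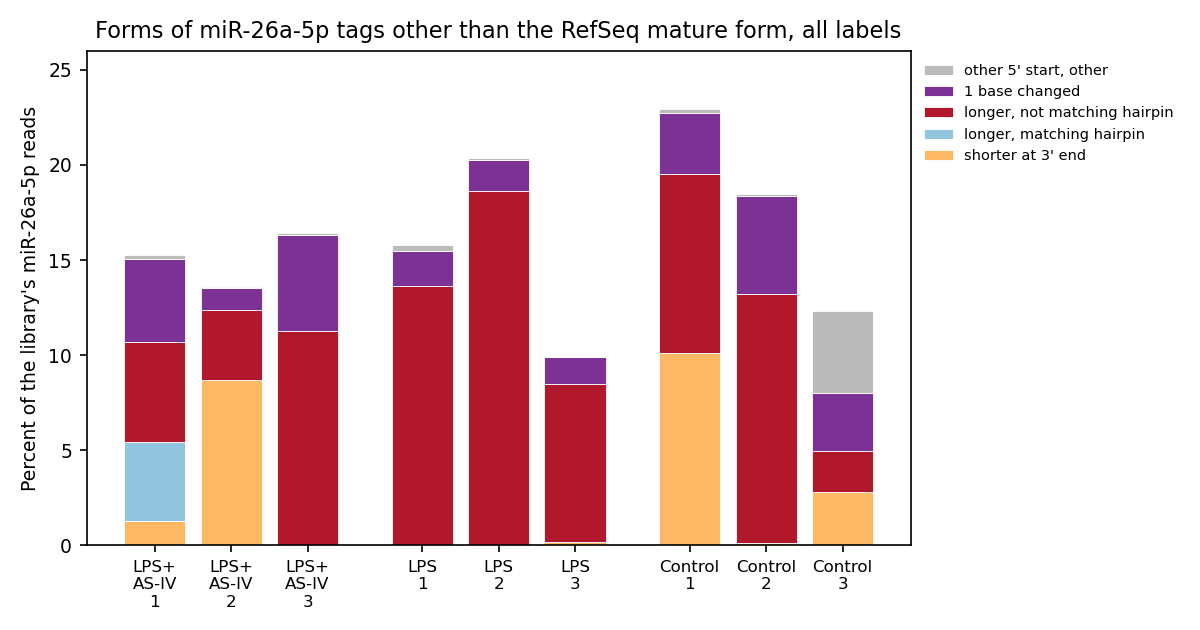
Forms of miR-26a-5p other than the RefSeq form by library, as percent of its reads of all labels, stacked by 3' end and by base changes. The RefSeq form, which is not drawn, was the rest of each library at 77.0 to 90.1%, and longer forms not matching the hairpin were 2.12 to 18.6%.

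Many of the variant tags were seen in 1 library. Beside the RefSeq forms there were 118 combinations of tag and label of the 2 members, a sequence with 2 labels entering under each. Of their 275 values in single libraries, 150 were 1 read and 50 were 20 reads or more. Of the 24 tags that reached 20 reads in some library, 18 did so in 1 library only, and 11 had at most 1 read in every other. The tag of miR-26a-5p with T and A added had 573 reads in LPS+AS-IV 3 and 0 elsewhere. The tag with G20A had 504 of its 512 reads in LPS+AS-IV 3. That library also had the lowest share of reads in the authors' second value column, at 53.7% of its table reads against 84.8 to 94.0% in the others, and whether this share and these tags are linked was not tested.

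A tag of LPS 3 joined features of both members. It had 88 reads in that library and 0 in the other 8.
tag with features of both members: ttcaagtaatTcaggataggctA
Against miR-26a-5p it carries C11T and an added A, both in capitals, so it has the base of miR-26b-5p at the inner position and the end of miR-26a-5p. It was counted with miR-26b-5p, which had 299 reads of all labels in LPS 3. Base changes inside miR-26a-5p covered 49 of 63 possible substitutions with 858 reads in all, and 17 of these lay in the seed, with 174 reads. G20A alone held 512 of the 858 reads, and G6C, found only in Control 3, held 83 of the 174. Of the passenger arms, miR-26b-3p had 13 table reads in LPS+AS-IV 1 and 66 in Control 1 and 0 in the other libraries, and no tag was named miR-26a-3p.

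The miRNAs with levels most like each member were found by Pearson's r of log2 CPM over the 9 libraries, given as a description, since the points share library and depth. For miR-26a-5p they were miR-411-5p (r = 0.74), miR-98-5p (0.63), miR-27b-3p (0.63), miR-7a-5p (0.61) and miR-486 (0.60). For miR-26b-5p they were miR-27a-3p (r = 0.76), miR-130b-5p (0.72), miR-3596d (0.61), miR-204-5p (0.61) and let-7d-5p (0.59). These levels are table counts, which kept from 0% (LPS 2) to 54.9% (LPS+AS-IV 2) of the reads of miR-26b-5p. The members themselves had r = 0.34 and Spearman's rho = 0.27. Without the 2 libraries farthest from the median of miR-26b-5p, its r was 0.51 with miR-27a-3p and 0.22 with miR-130b-5p, and with the same done for miR-26a-5p its r with miR-411-5p was 0.57. The r between the members was 0.06 in the first case and -0.14 in the second.

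MYC is known to repress miR-26 and a set of other miRNAs, and of 21 such miRNAs 12 could be tested. In LPS+AS-IV against LPS 8 were higher and 4 lower, with a median log2 fold change of 0.19 beside 0.19 over all 94 tested miRNAs, of which 57 were higher. With DESeq2 size factors these were 4 higher and 8 lower, and with scaling by assigned reads 10 higher and 2 lower. In LPS against Control 6 were higher and 6 lower (median -0.01, all tested -0.04 with 45 higher), or 8 and 4 with either of those scalings, and in LPS+AS-IV against Control 10 were higher and 2 lower (median 0.40, all tested 0.21 with 54 higher). The one that passed the threshold was let-7a-5p, which is counted among the higher ones in both comparisons with Control. Its CPM averaged 87460 ± 14170 in LPS+AS-IV, 72710 ± 4292 in LPS and 0 in Control (SD, n = 3 each). Its commonest tag was named miR-3596a in the 3 Control libraries, with 2873, 2831 and 6617 reads, and let-7a-5p in the 6 others, so the 0 in Control is a count under 1 of the 2 names of that sequence. The other abundant members, let-7f-5p, miR-146a-5p and miR-150-5p, had log2 fold changes of -0.19, 0.75 and 0.25 in LPS+AS-IV against LPS, and none passed the threshold in any comparison.

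Of 11 miRNAs known to restrain fibrosis 3 could be tested, and none passed the threshold. miR-204-5p, which the series title names, averaged 1862 ± 534 CPM in the LPS+AS-IV libraries, 149 ± 156 CPM in LPS and 1360 ± 444 CPM in Control (SD, n = 3 each). Its LPS libraries had 108, 17.1 and 321 CPM, where 3 reads were 108 CPM in LPS 1 and 51.4 CPM in LPS 2. Its log2 fold change was 3.63 ± 1.997 in LPS+AS-IV against LPS and -3.18 ± 1.96 in LPS against Control (adjusted p = 0.963 and 0.802, edgeR). miR-24-3p had 0.10 and 0.13, and let-7d-5p 0.60 and -0.32, in the same comparisons. With DESeq2 size factors 2 of the 3 were higher and 1 lower in LPS+AS-IV against LPS, where TMM put all 3 higher. The medians of the 3 were 0.60, -0.32 and 0.28 in LPS+AS-IV against LPS, LPS against Control and LPS+AS-IV against Control.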

How the data were processed

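The deposited table held whole-number read counts of mature miRNAs per library, with no normalization per the file headers, and equalled the sum of mature tags for both members. A second deposited column per library, headed exp, held counts no higher than these. Its making is not given in any source used. The single-library files held the authors' counts of tags of 15 to 45 nt and a score per the file headers, 0 for mature and 1 for hairpin tags. Bowtie2 and Rnor_6.0 are named in the submitters' processing notes without role or version. Mature and hairpin sequences were RefSeq's (GRCr8).

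Counts were tested with edgeR 4.0.16 (R 4.3.3, quasi-likelihood, TMM, filterByExpr, 1 fit over 9 libraries), which left 94 of 201 miRNAs with a biological coefficient of variation of 1.42. The procedure was also run on simulated counts with a smaller spread than these libraries have, so that run says nothing about its power here. Single values had two-sided exact permutation tests (scipy 1.17.1). Of these, 33 were chosen after seeing the data, and so were the counts over all labels. Shares have 95% Wilson intervals. PCR reads lacking molecular identifiers are not separate molecules. Intervals and floors therefore describe counting error alone. Alternatives were DESeq2 1.42.0, other scalings, no filter, exp values, a replicate block, 2 groups alone, other tags and left-out libraries. The planned share of the canonical form took table tags, with at least 20 reads per library, and its RefSeq form is 21 nt for miR-26b-5p and 22 nt for miR-26a-5p.

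The members and lists were chosen with earlier results of these data known. The miRNAs named are the members and their 3p arms, the 5 most correlated with each member, the 4 most abundant tested members of each list, and list members past the threshold. Where fewer than 4 were tested, all were named.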

Additional observations from a re-analysis of the deposited data

Results flagged for a closer look

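The share of miR-26b-5p reads under the Rfam family label, which the deposited table leaves out, was 40% in LPS 1, 98.4% in LPS 2 and 46.2% in LPS 3. Each of these lay above every Control library, where the share was 0.481%, 12.0% and 31.5%. LPS+AS-IV libraries had 42.9%, 14.4% and 0.133%. The LPS shares rest on 24, 122 and 138 family-labelled reads, and 138 reads in LPS 3 include tags found in that library alone.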

How the results depend on the processing

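Of 127 alternative values over 21 results, 103 were counted as unchanged, and so were 117 of 134 values with a library left out. For fold changes, ratios and canonical shares, unchanged meant the same direction and the same side of the threshold. For counts of calls it meant an equal or close count, and for hairpin shares a shift smaller than the group's SD. Permutation tests of 3 against 3 libraries cannot go below p = 0.1, so their side of the threshold was fixed in advance. Neither member passed the threshold under any alternative. In LPS+AS-IV against LPS the count of miRNAs past it was 0 by edgeR (3 at unadjusted p under 0.05), 1 with DESeq2 size factors, with no filter or with the replicate block, and 2 with DESeq2. In LPS against Control it was 1, then 2 with DESeq2 size factors, no filter, exp values or the replicate block, and 3 with the 2 groups alone or DESeq2. The cause was not tested.

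The sign of miR-26a-5p in LPS+AS-IV against LPS turned to -0.21 with DESeq2 size factors, -0.11 with exp values and -0.21 with DESeq2, and in LPS+AS-IV against Control to 1.14 with scaling by assigned reads. miR-26b-5p in LPS+AS-IV against Control turned to -0.12 with mature and hairpin tags and -0.033 with all labels. The planned share of the canonical form used table tags alone, which are canonical almost by construction: 99.8%, 96.4% and 99.9% for miR-26a-5p in LPS+AS-IV, LPS and Control. With mature and hairpin tags and with all labels, differences turned to 2.89 and 2.55 points in LPS against Control and 3.12 and 2.82 in LPS+AS-IV against Control for miR-26a-5p, and to 18.03 and 3.43, and 30.05 and 26.3, for miR-26b-5p. The 18.03 leaves out LPS 2, which had under 20 such reads, and with all 3 LPS libraries it is 9.06. The log2 ratio over mature and hairpin tags was 2.80 in LPS against Control, against 0.62 from the table, and -0.37 in LPS+AS-IV against Control, against -3.10.

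With 1 library left out, ranges in the order LPS+AS-IV against LPS, LPS against Control, LPS+AS-IV against Control were as follows. Counts past the threshold were 0 to 1, 1 to 3 and 2 to 3. The log2 fold change was -0.24 to 0.16, -0.71 to -0.06 and -0.61 to -0.09 for miR-26a-5p, and 1.93 to 3.21, -1.12 to 0.10 and 1.31 to 2.57 for miR-26b-5p. The log2 ratio was -4.74 to -1.95, -1.14 to 2.09 and -4.04 to -1.63. The canonical share of miR-26a-5p differed by 1.36 to 5.20, -5.33 to -1.49 and -0.22 to 0.031 points, and that of miR-26b-5p by 2.56 to 2.94, -2.94 and -0.38 to 0. In the values of miR-26b-5p with LPS, only LPS 3 had 20 table reads, so they rest on 1 LPS library, 1 of whose 34 reads was not canonical, and have no test. The hairpin share was 18.4 to 21.9% in LPS+AS-IV, 8.77 to 15.03% in LPS and 22.7 to 29.7% in Control.

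Same-numbered libraries correlated at -0.12 to 0.15 in their deviations from group means, and other pairs at -0.18 to 0.23. With so much scatter these values cannot show whether same-numbered libraries share an origin, and no source states it. The replicate block changed no call of the members. With 60 reads of miR-26b-5p in LPS 1 and 126 in LPS+AS-IV 1, depth limits its shares there.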
